A study of Mus musculus with 11 samples.

Results

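The genes described here carry signals from the cytokines IL-12 and IL-18 to the transcription factor T-bet and to interferon-gamma, the cytokine that defines type 1 helper T cells. The 10 members were chosen by symbol: the receptor chains and the signal transducer for IL-12 (Il12rb1, Il12rb2, Stat4), IL-18 and its receptor chains (Il18, Il18r1, Il18rap), the transcriptional regulators Tbx21, Eomes and Hopx, and Ifng. All 10 were found among the 56748 genes counted, and all 10 were tested. RNA was sequenced from liver CD4 T cells of mice given CCl4, a toxin that injures hepatocytes and leads to fibrosis, for 5 weeks. The 6 Atg5-deficient libraries carry the genotype ATG5TLymph-/-, a loss in T lymphocytes of a protein that autophagosomes need to form, and the 5 wild-type libraries the undeleted ATG5fl/fl alleles. The sources used here name neither the transgene that deletes the gene nor the age of the mice. All groups received the toxin, so no value stands for an uninjured liver.

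IL-12, made by dendritic cells and macrophages, binds a receptor of the IL-12 receptor beta 1 and beta 2 chains, which activates STAT4. IL-18 is cut to its active form by caspase-1 and binds a receptor of the IL-18R1 chain and its accessory chain IL-18RAP, which signals through MyD88. Both cytokines act together to raise interferon-gamma, T-bet binds the Ifng gene and maintains the IL-12 receptor beta 2 chain, and IL-18 is known in liver as a product of Kupffer cells.

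Libraries held 30699408 to 47564440 counted reads, and levels are given as CPM, counts relative to library size, scaled by TMM factors that correct for differences in composition. The series describes sorted cells, whereas the protocols of the labels describe RNA from fixed, embedded sections. The 8 markers of CD4 T cells summed to 2431 to 3744 CPM in Atg5-deficient and 2697 to 2999 CPM in wild-type libraries, and those of hepatocytes to 42.4 to 776 and 30.6 to 486 CPM. The CD8 marker Cd8a had at most 6 counts in any library. Whether each library is 1 animal is not stated, so the p-values concern the spread among libraries, which may be technical. In such bulk samples a change in the share of cells cannot be told apart from a change of RNA per cell. Any 2 replicates of a genotype differed beyond counting noise, with a chi-square of at least 14.1 per degree of freedom.

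The sequences shown first are those before the start of the 5 members that make up the 3 pairs with the highest correlations within a genotype, Tbx21 with Ifng, Ifng with Hopx, and Il12rb2 with Il18rap, as described further on. They are the 250 bases before the annotated start, from RefSeq (GRCm38.p6), 5′ to 3′ on the strand of the gene, in lower case, with matches to a STAT site in capitals.
Tbx21 (chr11:97115332-97115581, minus strand): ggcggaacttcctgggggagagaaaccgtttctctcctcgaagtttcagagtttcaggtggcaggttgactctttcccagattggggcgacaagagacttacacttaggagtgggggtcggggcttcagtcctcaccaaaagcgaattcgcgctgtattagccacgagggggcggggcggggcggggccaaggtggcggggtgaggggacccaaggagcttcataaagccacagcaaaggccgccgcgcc
Ifng (chr10:118440796-118441045, plus strand): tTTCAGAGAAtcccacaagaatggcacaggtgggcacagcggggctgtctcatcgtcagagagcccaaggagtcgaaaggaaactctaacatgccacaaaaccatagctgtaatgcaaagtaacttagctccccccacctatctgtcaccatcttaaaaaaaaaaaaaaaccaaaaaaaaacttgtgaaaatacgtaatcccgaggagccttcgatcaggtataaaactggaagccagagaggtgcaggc
Hopx (chr5:77115124-77115373, minus strand): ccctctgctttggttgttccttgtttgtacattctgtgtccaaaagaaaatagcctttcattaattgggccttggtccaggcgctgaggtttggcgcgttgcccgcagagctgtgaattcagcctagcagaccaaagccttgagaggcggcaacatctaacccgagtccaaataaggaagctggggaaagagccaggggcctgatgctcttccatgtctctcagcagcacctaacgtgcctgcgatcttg
Il12rb2 (chr6:67376189-67376438, minus strand): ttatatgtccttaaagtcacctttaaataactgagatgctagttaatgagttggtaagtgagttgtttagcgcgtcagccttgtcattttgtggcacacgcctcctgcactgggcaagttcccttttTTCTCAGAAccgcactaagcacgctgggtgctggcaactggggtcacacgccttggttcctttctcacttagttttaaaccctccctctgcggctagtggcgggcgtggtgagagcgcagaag
Il18rap (chr1:40515112-40515361, plus strand): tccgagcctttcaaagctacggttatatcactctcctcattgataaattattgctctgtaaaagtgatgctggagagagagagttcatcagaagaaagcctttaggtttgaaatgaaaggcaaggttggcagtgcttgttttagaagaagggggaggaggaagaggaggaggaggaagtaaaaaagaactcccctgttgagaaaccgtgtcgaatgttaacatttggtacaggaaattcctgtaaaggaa
A STAT, a T-box and an AP-1 motif were searched on both strands in the 13 RefSeq entries for the members other than Il12rb1. The STAT site TTCNNNGAA was held by 3 entries, those of Ifng and Il12rb2 and 1 of those of Il18r1, and by 7.02% of the 32851 entries of all genes. The T-box half-site GGTGTGA was in 0 of the 13 entries and in 3.33% of all entries, and the AP-1 site TGANTCA in 0 of the 13 and in 6.75% of all. With a single kind of motif matched, no matches of different motifs overlapped among the members, and a motif without a match is only absent from these letters.

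Of the 10 members, 6 rose in Atg5-deficient libraries: Il12rb1, Il18, Il18r1, Il18rap, Tbx21 and Hopx (edgeR quasi-likelihood test, adjusted p under 0.05 over 17987 genes). Il18 entered the test through the Atg5-deficient libraries alone, and without it 5 of 9 members rose. None fell; by edgeR, DESeq2 and limma-voom 0 members were called lower, and 0 were lower at an unadjusted p under 0.05. Among all tested genes 6.84% were called, 4.43% higher and 2.41% lower, and 46.0% rather than 64.7% of calls were higher with upper-quartile factors. DESeq2 called 7 of 9 members with an adjusted p higher, beside 14.1% of all genes (8.41% higher, 5.66% lower), and limma-voom 8 of 10, beside 19% (10.9% higher, 8.12% lower). Within the 8 libraries whose numbers in the labels are consecutive (5 Atg5-deficient, 3 wild-type), edgeR called 0 members and 0.935% of all genes, while 8 members had an unadjusted p under 0.05 (log2 fold changes 0.42 to 2.03). With the summed markers of cells other than T cells as a covariate, edgeR called the 6 members named above and 1332 of all tested genes. That covariate is mostly hepatocyte (30.6 to 776 CPM) and endothelial markers (118 to 212 CPM), so it cannot adjust for the scarcer cell types. With the summed markers of NK cells, ILC1 and CD8 T cells instead, edgeR called 0 members and 0.00556% of all genes. There 6 members had an unadjusted p under 0.05, and that sum was itself lower in Atg5-deficient libraries (r = -0.73 with genotype). The log2 fold change was positive for 10 of 10 members, against 49.7% of all tested genes, with a median of 1.20 beside 0.00 (-0.0027) for all. This count and median include Il18, whose entry through the Atg5-deficient libraries alone favours a positive value. Under a filter of 1 CPM in 5 libraries, which left Il18 out, 9 of 9 members were positive. Every Atg5-deficient library stood above every wild-type library for 5 members, Il12rb1, Il18r1, Il18rap, Tbx21 and, with the same limit, Il18, which was so for 2.78% of all tested genes.

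**Figure D1:**
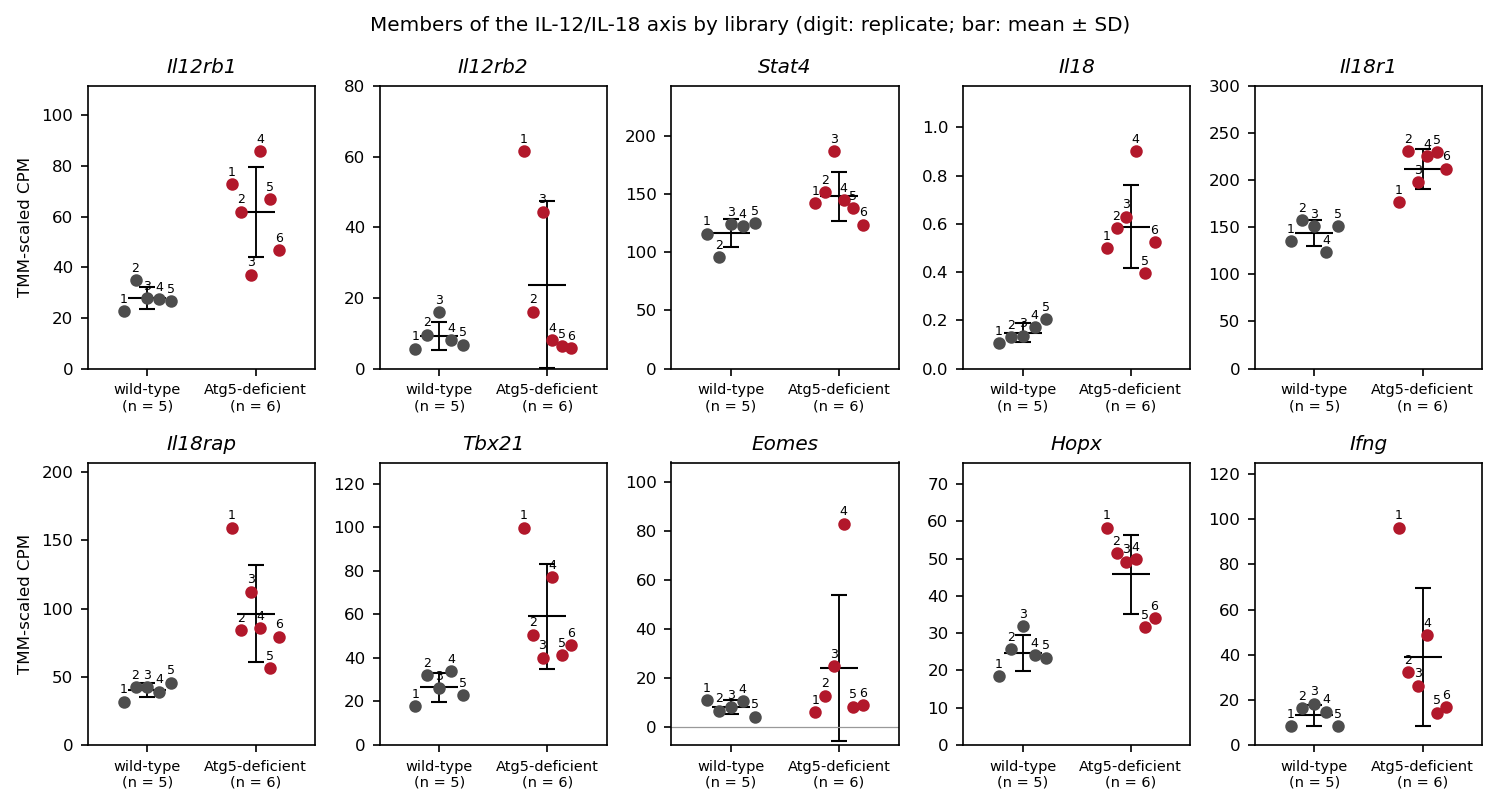
Level of each member (y axis, TMM-scaled CPM) in the 5 wild-type (grey) and 6 Atg5-deficient libraries (red), with the replicate number at each point and the mean ± SD as a bar. The groups do not overlap for Il12rb1, Il18, Il18r1, Il18rap and Tbx21. For Il12rb2 and Eomes 3 Atg5-deficient libraries lie above every wild-type library, and for Ifng 4.

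The IL-12 receptor came first. Il12rb1 (ENSMUSG00000000791, chromosome 8, 70808449 to 70821424, plus strand, GRCm38) encodes the chain that the receptors for IL-12 and IL-23 share. It stood at 22.6, 34.9, 27.8, 27.4 and 26.7 CPM in wild-type replicates 1 to 5, and at 37.0 (lowest), 64.4 (median) and 85.8 CPM (highest) in the 6 Atg5-deficient libraries. All Atg5-deficient libraries were above all wild-type libraries, with replicate 3 the lowest and replicate 4 the highest of them. The means were 61.8 ± 17.7 CPM (SD, n = 6) and 27.9 ± 4.43 CPM (SD, n = 5), a rise of 1.15 on the log2 scale (SE 0.19, edgeR, adjusted p = 0.00625).

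Il12rb2 (ENSMUSG00000018341, chromosome 6, 67291318 to 67376188, minus strand) encodes the chain particular to IL-12, which binds STAT4. It was counted at 5.62, 9.58, 15.9, 7.96 and 6.80 CPM in the wild-type replicates in order, and at 5.75, 12.1 and 61.6 CPM (lowest, median, highest) in the Atg5-deficient libraries. Atg5-deficient replicates 1 (61.6 CPM) and 3 (44.5 CPM) stood far above the rest, replicate 2 (16.1 CPM) just above the highest wild-type library, and the other 3 within the wild-type range. The log2 fold change of 1.37 (95% interval -0.17 to 2.91, edgeR, adjusted p = 0.271) did not pass, and was 0.82 without Atg5-deficient replicate 1. The libraries with the most Il12rb2 also had the most hepatocyte marker RNA. Atg5-deficient replicates 1, 2 and 3 had hepatocyte sums of 776, 773 and 554 CPM, wild-type replicate 3 had 486 CPM, and the other libraries had 30.6 to 327 CPM. With the summed markers of cells other than T cells as a covariate the log2 fold change was 0.66. The gene shares 1519 exonic bases with Serbp1 on the other strand. Serbp1 was far more highly counted, at 427 to 609 CPM in Atg5-deficient and 453 to 500.2 CPM in wild-type libraries. Whether hepatocyte RNA or reads of Serbp1 enter the Il12rb2 count was not tested.

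Stat4 (ENSMUSG00000062939, chromosome 1, 51987148 to 52107189, plus strand) encodes the transcription factor that the IL-12 receptor activates. Its level was 116, 95.8, 124, 123 and 125 CPM in the wild-type replicates, and 124, 144 and 187 CPM (lowest, median, highest) in the Atg5-deficient libraries, of which 5 were above every wild-type library. The log2 fold change was 0.34 (95% interval 0.12 to 0.57, edgeR, adjusted p = 0.0634), short of the threshold, while DESeq2 (adjusted p = 0.0250) and limma-voom (adjusted p = 0.0214) called the gene higher. Stat4 shares 1033 exonic bases with Gm28177, a transcript annotated on the same strand whose summed count was 428% of its own. The overlap setting of the counting is not given, so reads of the shared bases may be counted for both genes or for neither.

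IL-18 itself was scarce. Il18 (ENSMUSG00000039217, chromosome 9, 50554827 to 50581840, plus strand) had 4 to 8 counts in the wild-type and 16 to 34 counts in the Atg5-deficient libraries. On the CPM scale the wild-type replicates stood at 0.105, 0.129, 0.136, 0.171 and 0.204, and the Atg5-deficient libraries at 0.395, 0.553 and 0.901 (lowest, median, highest). The groups did not overlap, and every value lay above the level of 3 counts, 0.0631 to 0.0977 CPM. The gene rose by 1.96 on the log2 scale (SE 0.44, edgeR, adjusted p = 0.0191). It entered the test through the Atg5-deficient libraries alone, since no wild-type library reached 10 counts, and it was not tested under a filter of 1 CPM in 5 libraries. The edgeR call was lost without a low-count filter (adjusted p = 0.122) and without wild-type replicate 1 (adjusted p = 0.0568), and DESeq2 gave no adjusted p.

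Macrophages, including Kupffer cells, are a known source of IL-18, and their 10 markers summed to 5.65 to 19.0 CPM in Atg5-deficient and 10.3 to 13.7 CPM in wild-type libraries, with 0 of 5 tested markers called by edgeR. Clec4f, which marks Kupffer cells, had at most 34 counts in a library. Cd68 made up most of the macrophage sum, with a log2 fold change of -0.29 by edgeR. The other tested markers had 1.33 (Cd5l), 0.63 (Marco), -0.22 (Csf1r) and -0.36 (C1qc). Cd5l stood at 0.681 ± 0.250 CPM (SD, n = 6) against 0.270 ± 0.184 CPM (SD, n = 5). In 5 Atg5-deficient libraries it was above every wild-type library (edgeR, adjusted p = 0.143). Dendritic cell markers summed to 13.7 to 28.9 CPM against 7.21 to 16.0 CPM, and 1 of 4 tested markers, Itgax, rose (log2 fold change 2.67, SE 0.66, edgeR, adjusted p = 0.0300). Itgax had 4 to 22 counts in wild-type and 10 to 150 in Atg5-deficient libraries. The wild-type libraries alone would not have brought it into the test. Its call passed in 5 of 11 fits that left out 1 library, and Atg5-deficient replicate 5 (0.247 CPM) lay within the wild-type range. With the summed markers of cells other than T cells as a covariate, the log2 fold change of Il18 was 2.01 (edgeR, adjusted p = 0.0213). That covariate pools many cell types and is mostly hepatocyte and endothelial marker RNA, beside which the macrophage and dendritic cell sums are small. The part of macrophages and dendritic cells in the Il18 count was not tested. Il18bp, which encodes the secreted antagonist of IL-18, stood at 6.20 ± 1.03 CPM (SD, n = 6) and 6.63 ± 1.52 CPM (SD, n = 5), with a log2 fold change of -0.10 (SE 0.19, edgeR, adjusted p = 0.798).

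Both receptor chains for IL-18 rose. Il18r1 (ENSMUSG00000026070, chromosome 1, 40465552 to 40500854, plus strand), the ligand-binding chain, varied least of all members within a genotype. It stood at 135, 158, 151, 124 and 151 CPM in the wild-type replicates and at 177, 219 and 231 CPM (lowest, median, highest) in the Atg5-deficient libraries. The groups were apart, with Atg5-deficient replicate 1 the lowest of its group, and the gene rose by 0.56 on the log2 scale (SE 0.09, edgeR, adjusted p = 0.00505).

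Il18rap (ENSMUSG00000026068, chromosome 1, 40515362 to 40551705, plus strand), the next gene downstream, encodes the accessory chain that signalling requires. Its wild-type levels were 31.8, 42.6, 42.3, 39.2 and 45.8 CPM, and the Atg5-deficient libraries had 56.4, 85.0 and 159 CPM (lowest, median, highest). Here Atg5-deficient replicate 1 was the highest library, not the lowest of its group. The rise was 1.25 on the log2 scale (SE 0.22, edgeR, adjusted p = 0.00927).

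The balance of paired genes was compared as the log2 ratio of their CPM in each library. Il18rap relative to Il18r1 was -1.21 ± 0.645 (SD, n = 6) in Atg5-deficient and -1.84 ± 0.168 (SD, n = 5) in wild-type libraries. This difference of 0.63 was seen as a higher ratio than in any wild-type library in 5 of 6 Atg5-deficient libraries, and did not pass after adjustment over 4 ratios (exact permutation test over 462 splits, two-sided, p = 0.0498, adjusted p = 0.199). The difference was -0.27 for Il12rb2 relative to Il12rb1, -0.12 for Eomes relative to Tbx21 and 0.23 for Ifng relative to Tbx21 (adjusted p = 0.848 for each, exact permutation tests). The smallest p that the splits allow is 0.00216.

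Among the regulators, Tbx21 (ENSMUSG00000001444, chromosome 11, 97098071 to 97115331, minus strand) encodes T-bet, the lineage factor of type 1 helper cells. Its level was 17.9, 32.2, 26.1, 34.0 and 22.8 CPM in the wild-type replicates, and 40.1, 48.3 and 99.8 CPM (lowest, median, highest) in the Atg5-deficient libraries. No libraries overlapped between genotypes, although 4 Atg5-deficient libraries were close to the wild-type range, at 40.1 to 50.7 CPM, and replicates 1 (99.8 CPM) and 4 (77.1 CPM) stood higher. The rise of 1.15 (SE 0.27, edgeR, adjusted p = 0.0266) passed in 7 of 11 fits that left out 1 library. The call was lost without Atg5-deficient replicate 4 (adjusted p = 0.0527) and without wild-type replicates 1 (0.0601), 3 (0.0573) and 5 (0.0650), with log2 fold changes of 1.04 to 1.15 by edgeR.

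Eomes (ENSMUSG00000032446, chromosome 9, 118478212 to 118486132, plus strand) encodes the related T-box factor of cytotoxic and memory lymphocytes. It did not follow Tbx21. Wild-type replicates had 11, 6.64, 7.99, 10.6 and 4.25 CPM, and the Atg5-deficient libraries 6.15, 10.9 and 83.1 CPM (lowest, median, highest). Replicate 4 was the highest, and replicate 1, highest for Tbx21, was the lowest Atg5-deficient library for Eomes. The log2 fold change of 1.57 (95% interval -0.01 to 3.15, edgeR, adjusted p = 0.217) did not pass and was 0.59 without replicate 4.

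Hopx (ENSMUSG00000059325, chromosome 5, 77086988 to 77115121, minus strand) encodes a small homeodomain protein that does not bind DNA, known as a product of type 1 effector memory cells downstream of T-bet. It was counted at 18.4, 25.7, 31.9, 24.1 and 23.5 CPM in wild-type, and at 31.6, 49.5 and 58.3 CPM (lowest, median, highest) in Atg5-deficient libraries. Only Atg5-deficient replicate 5 lay below a wild-type library, replicate 3. The gene rose by 0.89 on the log2 scale (SE 0.17, edgeR, adjusted p = 0.0105).

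Ifng (ENSMUSG00000055170, chromosome 10, 118441046 to 118445892, plus strand) encodes interferon-gamma, the effector cytokine at the end of this axis. Wild-type replicates had 8.36, 16.4, 18.4, 14.7 and 8.23 CPM, and the Atg5-deficient libraries 14.4, 29.4 and 96.3 CPM (lowest, median, highest). Atg5-deficient replicates 1 to 4 were above every wild-type library, while replicates 5 (14.4 CPM) and 6 (16.8 CPM) were within the wild-type range. The log2 fold change was 1.57 (95% interval 0.44 to 2.69) and did not pass (edgeR, adjusted p = 0.0913). DESeq2 (adjusted p = 0.0195) and limma-voom (adjusted p = 0.0475) called it higher, and without Atg5-deficient replicate 1 the edgeR log2 fold change was 1.07. Gm49751, annotated on the same strand, shares 336 exonic bases with Ifng and had a summed count of 104% of that of Ifng. Its log2 fold change was 1.42 (edgeR, adjusted p = 0.0532). Here too, reads of the shared bases may be counted for both genes or for neither.

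NK cells and type 1 innate lymphocytes also use T-bet, Eomes and interferon-gamma. Their 7 markers summed to 1.59 to 6.79 CPM in Atg5-deficient and 4.53 to 12.7 CPM in wild-type libraries, with Klra4 at 2 counts or fewer in every library, Ncr1 at 11 counts or fewer, and 0 of 4 tested markers called by edgeR. CD8 T cell markers summed to 4.21 to 6.47 against 4.93 to 6.39 CPM, and gamma-delta T cell markers to 7.10 to 11.9 against 8.44 to 15.0 CPM. Of 5 tested gamma-delta markers 1, Tcrg-C4, fell, with all Atg5-deficient libraries below all wild-type libraries. Its log2 fold change was -1.51 (SE 0.38, edgeR, adjusted p = 0.0297), passing in 5 of 11 fits that left out 1 library. Not called were Tcrg-C1 (-1.31) and Tcrg-C2 (-0.81) and, in the other direction, Trdc (0.45) and Sox13 (0.16). The markers of NKT and MAIT cells came to 3.23 to 12.2 against 8.63 to 18.3 CPM. Atg5-deficient replicates 1 and 4, the highest for Tbx21 and Ifng, had NK and ILC1 sums of 2.66 and 1.86 CPM and NKT and MAIT sums of 5.77 and 3.23 CPM. Both sums include Klrb1c, at 2.08 and 0.901 CPM in these replicates, and so are not independent. Replicate 4, the highest for Eomes, was followed there by replicate 3, which had the highest sums of its group, 6.79 and 12.2 CPM. The part of these cells in the members' levels was not tested.

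**Figure D2:**
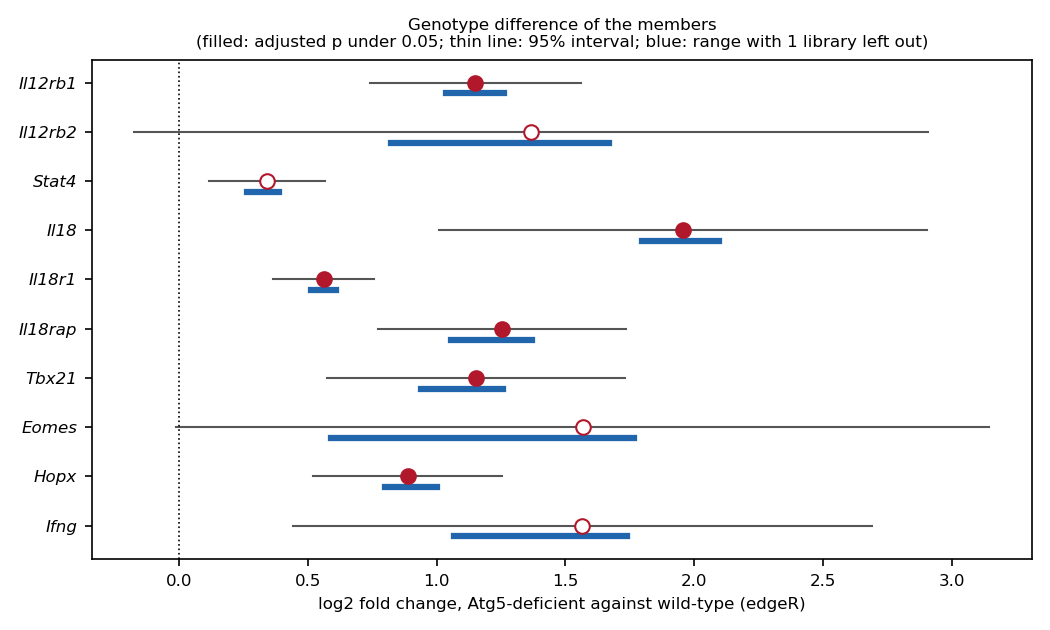
Log2 fold change of each member (x axis, Atg5-deficient against wild-type, edgeR; filled where the adjusted p was under 0.05), with its 95% interval (thin line) and the range over the 11 fits that left out 1 library (blue). All 10 values lie above 0, and the intervals of Il12rb2 and Eomes reach below 0.

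Within the Atg5-deficient group the members spread unequally. The SD was 10.1% of the mean for Il18r1, 14.4% for Stat4 and 23.1% for Hopx, but 78.1% for Ifng, 99.6% for Il12rb2 and 124% for Eomes. In wild-type libraries the same share ran from 9.73% for Il18r1 to 44.0% for Il12rb2. Replicate 1 held the highest level of 5 members (Il12rb2, Il18rap, Tbx21, Hopx, Ifng) and replicate 4 that of 3 (Il12rb1, Il18, Eomes), while wild-type replicate 1 held the lowest level of 6 members.

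Levels of different genes were compared per kilobase of exon. In wild-type libraries Stat4 (30.1 ± 3.14 CPM per kb) and Il18r1 (29.9 ± 2.90) were highest and differed by less than their SD. Hopx (16.3 ± 3.20) came next, followed by Tbx21 (10.7 ± 2.67) and Ifng (10.2 ± 3.61), again within their SD of each other. Il12rb1 (6.79 ± 1.08) and Il18rap (5.98 ± 0.789) differed by less than the larger SD, as did Il12rb2 (2.42 ± 1.06) and Eomes (1.95 ± 0.678), and Il18 (0.144 ± 0.0377) was lowest (SD, n = 5 for each). In Atg5-deficient libraries Il18r1 (44.1 ± 4.46 CPM per kb) and Stat4 (38.2 ± 5.49) were highest, while Ifng (30.2 ± 23.6), Hopx (30.2 ± 6.96) and Tbx21 (23.8 ± 9.70) could not be ordered beyond their spread, and Il18 (0.571 ± 0.167) was again lowest (SD, n = 6 for each).

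Co-variation was measured with the mean of each genotype removed, so that the difference between genotypes did not enter. Of 45 pairs of members, 3 passed after adjustment over the pairs (exact permutation within genotype). Ifng and Hopx had Pearson r = 0.86 over 11 libraries (exact permutation p = 0.00109, adjusted p = 0.0346) and Spearman rho = 0.84 (permutation p = 0.00328, adjusted p = 0.142). Without the 2 libraries farthest from the median of Ifng, Atg5-deficient replicates 1 and 5, r was 0.81.

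Tbx21 and Ifng had r = 0.88 (exact permutation p = 0.00154, adjusted p = 0.0346) and rho = 0.83 (permutation p = 0.00667, adjusted p = 0.142), and r = 0.65 without Atg5-deficient replicates 1 and 4. Il12rb2 and Il18rap had r = 0.85 (exact permutation p = 0.00302, adjusted p = 0.0453) and rho = 0.81 (permutation p = 0.00945, adjusted p = 0.142), and r = 0.48 without Atg5-deficient replicates 1 and 3, so that this relation rests on those libraries. By Spearman 0 of the 45 pairs passed, and with the 2 farthest libraries left out 0 passed by Pearson, where 7 of 45 had an unadjusted p under 0.05 in all libraries. The 3 pairs became 0 without any 1 of Atg5-deficient replicates 1, 2, 5 and 6 or wild-type replicates 1 to 4, and 1 without Atg5-deficient replicate 4. Tbx21 and Eomes had r = 0.08 (exact permutation p = 0.869, adjusted p = 0.931) and rho = -0.09 (permutation p = 0.811, adjusted p = 0.991).

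**Figure D3:**
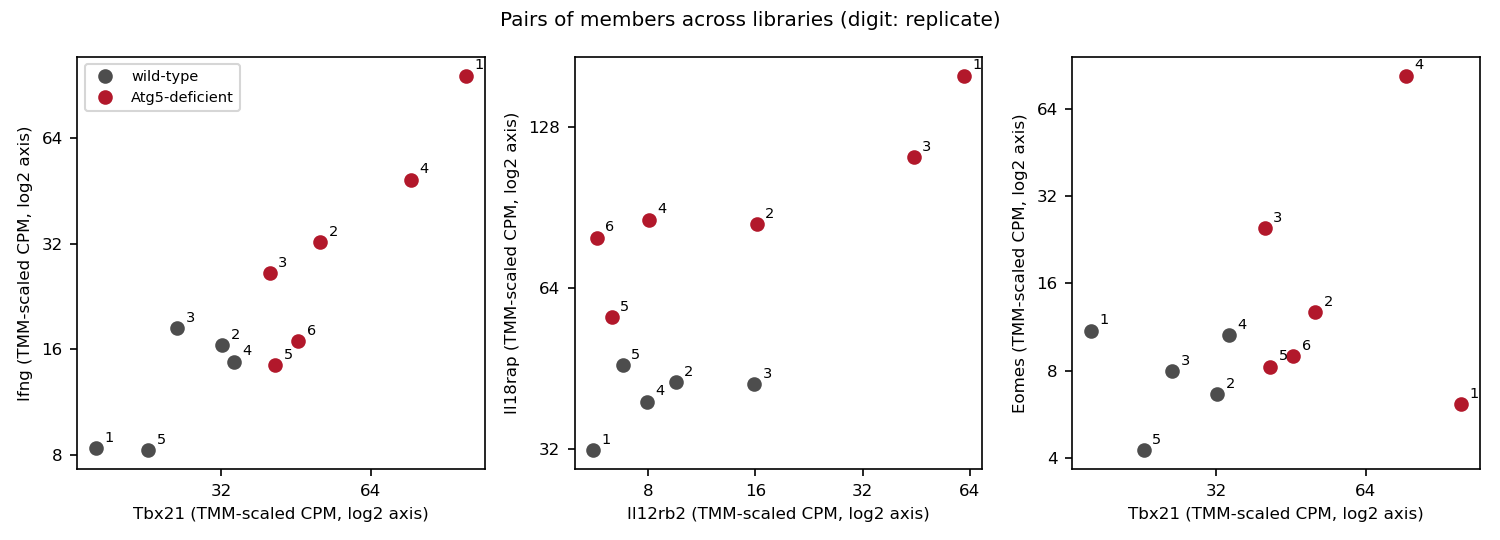
Levels of Ifng against Tbx21, Il18rap against Il12rb2 and Eomes against Tbx21 (TMM-scaled CPM, log2 axes) in each wild-type (grey) and Atg5-deficient library (red), with replicate numbers. Atg5-deficient replicates 1 and 4 are highest for both Tbx21 and Ifng, replicates 1 and 3 for both Il12rb2 and Il18rap, and replicate 1 is highest for Tbx21 but low for Eomes.

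The Atg5-deficient libraries alone gave r = 0.92 for Tbx21 and Ifng (n = 6, exact permutation p = 0.00833, adjusted p = 0.163), 0.89 for Ifng and Hopx (exact permutation p = 0.0181, adjusted p = 0.163) and 0.89 for Il12rb2 and Il18rap (exact permutation p = 0.00833, adjusted p = 0.163). The receptor chains Il18r1 and Il18rap ran in opposite directions there, with r = -0.90 (n = 6, exact permutation p = 0.0153, adjusted p = 0.163). Over all 11 libraries r was -0.52 for that pair (exact permutation p = 0.135, adjusted p = 0.508), with rho = -0.36 (permutation p = 0.304, adjusted p = 0.668) and r = -0.18 without Atg5-deficient replicate 1 and wild-type replicate 4. The 5 wild-type libraries were too few for values of their own.

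**Figure D4:**
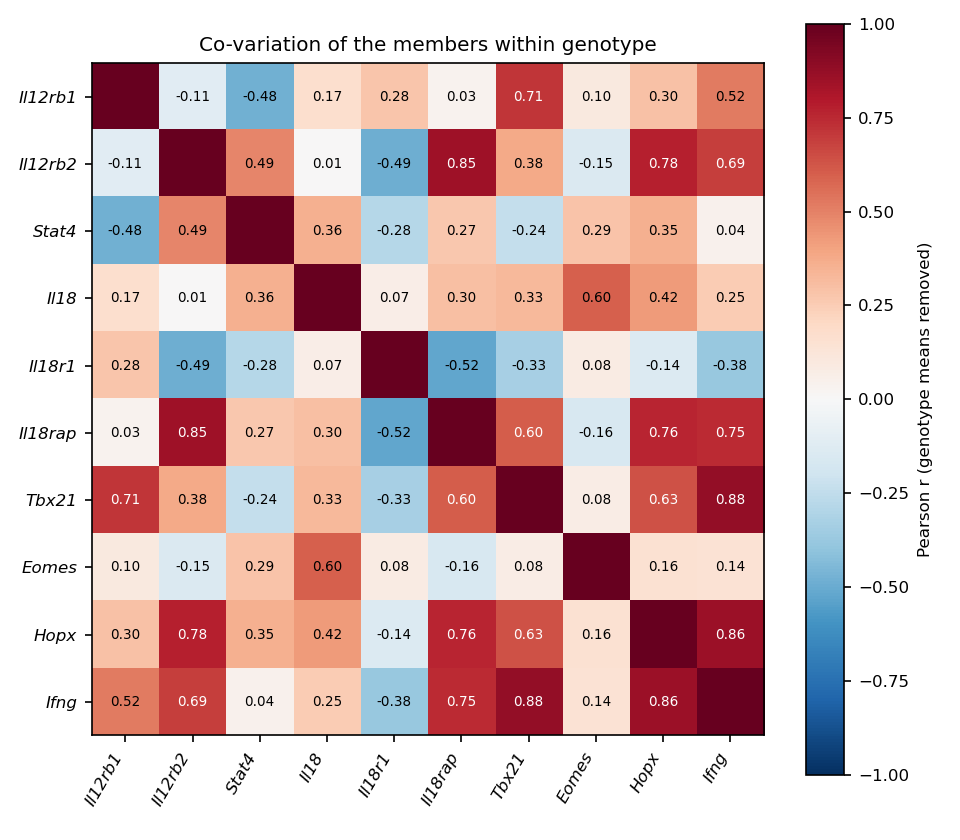
Pearson r of each pair of members over the 11 libraries after removal of the genotype means (colour and number, from -1 in blue to 1 in red). The highest values are those of Tbx21 and Ifng (0.88), Ifng and Hopx (0.86) and Il12rb2 and Il18rap (0.85), and 34 of the 45 values are positive.

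Outside the members, 12579 tested genes with a symbol were ranked by the Pearson r of their genotype-centred log2 CPM over the 11 libraries, given here as a description. The top values of so many genes over 11 libraries can be high by chance, and none was tested. Most like Tbx21 were Selenok (r = 0.92), Sntb2 (0.91), Gpr137 (0.90), Chst2 (0.89) and Chsy1 (0.89). Most like Ifng were Selenok (0.91), Chst2, Ryk and Hbegf (0.90 each) and Id2 (0.89). For Il18 they were Spp1 (0.89), Rbm7 (0.87), Ube2v2 and Emd (0.86 each) and Tmem140 (0.85), but its few counts make this order uncertain.

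The other genes of the pathway were read from lists chosen by role. The choice was made with earlier results of these data known, so the lists are no independent support. Their counts stand beside 4.43% of all tested genes higher and 2.41% lower, with 49.7% above 0. Among partners of IL-12 signalling (kinases, feedback inhibitors, Stat3 and Il23r), 3 of 7 tested genes rose and none fell (42.9% called, against 6.84% of all). Their median log2 fold change was 0.35. By edgeR, DESeq2 and limma-voom 0 of them were lower, and 0 were lower at an unadjusted p under 0.05. Jak2, the kinase bound to the beta 2 chain, rose from 185 ± 15.0 (SD, n = 5) to 246 ± 22.9 CPM (SD, n = 6; log2 fold change 0.41, SE 0.08, edgeR, adjusted p = 0.0135). Tyk2, the kinase bound to the beta 1 chain, rose by 0.35 (SE 0.09, edgeR, adjusted p = 0.0357) and Cish, a feedback inhibitor of cytokine signalling, by 0.56 (SE 0.14, edgeR, adjusted p = 0.0268), passing in 4 and 6 of 11 fits that left out 1 library. Il12a, Il12b and Il23a, which encode cytokine subunits made mostly by myeloid cells, were too low to test, at means of 0.161 or less CPM.

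Around IL-18, 1 of 15 tested genes rose and none fell (6.67% called, near the 6.84% of all tested genes), with a median log2 fold change of 0.14. Casp1, the protease that activates IL-18, rose from 15.0 ± 2.30 (SD, n = 5) to 30.5 ± 7.31 CPM (SD, n = 6), with all Atg5-deficient libraries above all wild-type libraries (log2 fold change 1.03, SE 0.16, edgeR, adjusted p = 0.00422). The adaptor gene Myd88 (0.14) and the kinase genes Irak1 (0.08) and Irak4 (0.12) did not pass. At an unadjusted p under 0.05 1 gene of this list was lower, DESeq2 called 0 lower and limma-voom 1.

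Among 11 tested partners and cofactors of T-bet 2 rose (18.2% called, against 6.84% of all tested genes), with a median of 0.61. Prdm1, which encodes Blimp-1, rose by 1.10 (SE 0.21, edgeR, adjusted p = 0.0120) and Id2, an inhibitor of E proteins, by 0.61 (SE 0.17, edgeR, adjusted p = 0.0450, passing in 3 of 11 fits that left out 1 library). Runx3, which binds Ifng together with T-bet, stood at 182 ± 30.3 (SD, n = 6) and 147 ± 27.2 CPM (SD, n = 5) and did not pass (0.31, SE 0.13, edgeR, adjusted p = 0.178). None was called lower by edgeR, 1 was lower at an unadjusted p under 0.05, and DESeq2 and limma-voom each called 1 lower.

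All 16 listed target genes of T-bet, chosen with the same limit, were tested. A log2 fold change above 0 was found for 16 (49.7% of all tested genes), with a median of 1.17. Of them 5 rose (31.3% called, against 6.84% of all). None was lower by edgeR, DESeq2 or limma-voom, and 0 at an unadjusted p under 0.05. Cxcr3, the chemokine receptor of type 1 cells, rose by 1.04 (SE 0.18, edgeR, adjusted p = 0.00684), and Il2rb, the IL-2 and IL-15 receptor beta chain, by 0.69 (SE 0.14, edgeR, adjusted p = 0.0134). Tnf rose by 0.57 (SE 0.11, edgeR, adjusted p = 0.00996) and Cx3cr1 by 2.95 (SE 0.73, edgeR, adjusted p = 0.0384, passing in 5 of 11 fits that left out 1 library). Cx3cr1 stood at 46.2 CPM in Atg5-deficient replicate 1 and at 3.82 to 11.4 CPM in the other Atg5-deficient libraries, and its log2 fold change was 1.90 without that replicate. DESeq2 called 10 of the list higher and limma-voom 7.

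**Figure D5:**
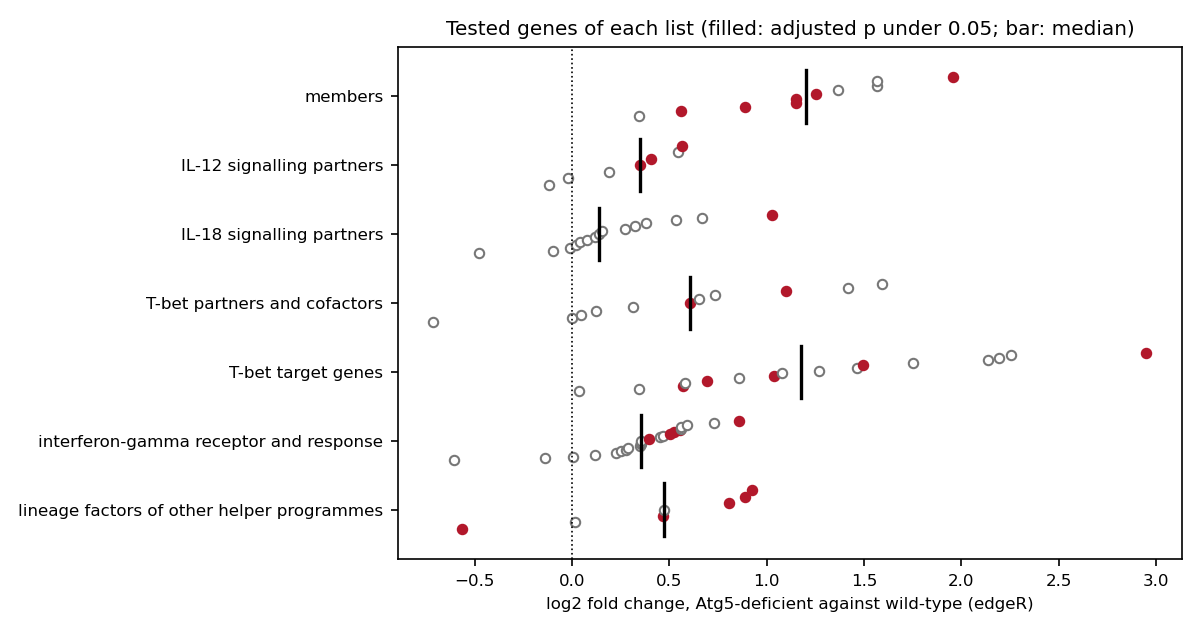
Log2 fold changes (x axis, Atg5-deficient against wild-type, edgeR) of the tested genes of each list, filled where the adjusted p was under 0.05, with the median as a bar. The medians of the members (1.20, Il18 included) and of the T-bet target genes (1.17) lie to the right of those of the other lists, which run from 0.14 to 0.61.

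Genes of the interferon-gamma receptor and response had a median of 0.36, with 5 of 23 tested genes higher and none lower (21.7% called, against 6.84% of all). The guanylate-binding protein genes Gbp3 (0.86, SE 0.15, edgeR, adjusted p = 0.00813), Gbp5 (0.56, SE 0.12, edgeR, adjusted p = 0.0181) and Gbp7 (0.52, SE 0.13, edgeR, adjusted p = 0.0319) rose, as did Cd274, which encodes PD-L1 (0.50, SE 0.14, edgeR, adjusted p = 0.0428), and Tap1. Gbp7, Cd274 and Tap1 passed in 2 to 3 of 11 fits that left out 1 library. At an unadjusted p under 0.05 0 genes of the list were lower, DESeq2 called 0 lower and limma-voom 2.

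Lineage factors of other helper programmes changed alongside. Of 7 tested, 4 rose and 1 fell (71.4% called, against 6.84% of all), so calls were not particular to the type 1 axis. By edgeR Rora (0.89), Foxp3 of regulatory T cells (0.81), Gata3 of type 2 cells (0.47) and Maf (0.93) were higher. Tcf7, which encodes TCF-1, was lower (-0.56, edgeR, adjusted p = 0.0148). Bcl6, the factor of follicular helper cells, did not pass (0.02, edgeR, adjusted p = 0.980).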

How the data were processed

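RNA-seq counts of 6 Atg5-deficient and 5 wild-type libraries were used, with genotypes from the labels and replicates numbered in accession order, so that numbers pair nothing. The authors deposited unnormalized counts by Ensembl gene, with 0 columns of other samples. The tools named are STAR and featureCounts and the build GRCm38, per the submitters' processing notes. Versions, annotation release, strand setting and overlap setting: not given in the sources used here. Symbols and positions came from GENCODE M21 (GRCm38), which matched 91.9% of 56748 IDs.

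Low genes were removed with filterByExpr (10 counts, total of 15). After TMM scaling, edgeR's quasi-likelihood test was applied with Benjamini-Hochberg adjustment over 17987 genes and a threshold of 0.05. SE is the log2 fold change divided by the square root of F. Correlations and ratios used log2 CPM with prior count 2. Intervals cover the spread among these libraries under the fitted model, and the 3-count level covers counting error only. The software was DESeq2 1.42.0, limma 3.58.1 and edgeR 4.0.16 under R 4.3.3. Counts over 17587 genes were simulated from these means, library sizes and fitted dispersions. The test recovered 34.3%, 67.2% and 93.9% of genes changed 1.5-fold, 2-fold and 4-fold, with 7 false among 137 calls. Only genes with a mean above 1 CPM were changed, so these shares do not cover Il18. Alternatives were other scalings, filters and tools, 8 libraries with consecutive numbers, covariates of other-cell markers and each library left out.

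The members and lists were chosen with earlier results of these data known. Named are all members, up to 4 called genes per list with the smallest p, Il18bp, Cxcr3 and Runx3, and the 5 genes most like Tbx21, Ifng and Il18. Gm28177, Gm49751, Serbp1, Itgax, Tcrg-C4, Tap1, Myd88, Irak1, Irak4, Bcl6 and the untested cytokine genes were added after their values were seen. The other tested markers of gamma-delta T cells, those of macrophages, and Klrb1c were added likewise. Some genes that the rule names are not reported here.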

Additional observations from a re-analysis of the deposited data

Results flagged for a closer look

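Each group of a member, ratio or marker sum was checked for a library far from the others, in 56 groups, where chance flags about 5%. In 3 groups 1 library stood out. Eomes was at 83.1 CPM in Atg5-deficient replicate 4, with the next library at 24.8 CPM. The log2 ratio of Il12rb2 to Il12rb1 was -0.80 in wild-type replicate 3, with the next at -1.78. The summed NKT and MAIT cell markers were at 12.2 CPM in Atg5-deficient replicate 3, with the next at 5.77 CPM. The part of these libraries in other results is given by the fits that left them out.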

How the results depend on the processing

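No paired analysis was possible because the labels give no replicate numbers. Of the 6 calls among the members, those of Il12rb1, Il18r1, Il18rap and Hopx passed in each of 11 fits with a library left out, that of Il18 in 10 (lost without wild-type replicate 1, adjusted p = 0.0568) and that of Tbx21 in 7; the number of members called ran from 4 to 7. It was 5 without a low-count filter, where the edgeR calls of Tbx21 and Il18 were lost and Stat4 passed, 7 by DESeq2 and 8 by limma-voom. Among the 8 libraries with consecutive numbers edgeR called 0 members (8 at an unadjusted p under 0.05, log2 fold changes 0.42 to 2.03) and 176 of all tested genes, 87 higher and 89 lower. With the summed markers of cells other than T cells as a covariate, mostly those of hepatocytes and endothelial cells, edgeR called the 6 members of the main fit. It called 1332 of all tested genes there. The summed NK, ILC1 and CD8 markers, a covariate added after the data were seen, were themselves correlated with genotype (r = -0.73). With them edgeR called 0 members (6 at an unadjusted p under 0.05, log2 fold changes 0.36 to 1.77) and 1 of all tested genes. No other tool was run on these alternatives. All member log2 fold changes kept their sign.

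Calls over all tested genes numbered 1231 (64.7% higher), 2333 by DESeq2, 3426 by limma-voom and 1269 with upper-quartile factors (46.0% higher). They ran from 642 to 2143 when 1 library was left out: 715, 642, 2143 and 702 without Atg5-deficient replicates 1 to 4, and 673, 710 and 651 without wild-type replicates 1, 4 and 5. Called genes of the pathway lists numbered 21, and 12 to 31, with 12 and 13 without wild-type replicates 1 and 4. The ratio differences ranged from -0.72 to 0.017 for Il12rb2 to Il12rb1, 0.41 to 0.79 for Il18rap to Il18r1, -0.52 to 0.31 for Eomes to Tbx21 and 0.07 to 0.37 for Ifng to Tbx21. Of these only Il18rap to Il18r1 passed, without Atg5-deficient replicate 5 (exact permutation, adjusted p = 0.0317). The 3 pairs that co-varied came to 0 to 3 with 1 library left out and to 0 without the 2 farthest; these fits have fewer orderings. The causes were not tested. Depth limits Il18, with 4 to 34 counts.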
